A study of Mus musculus with 18 samples.

Results

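Carbonic anhydrases are enzymes that interconvert carbon dioxide and bicarbonate with release or uptake of a proton. Some work in the cytosol, some in mitochondria, and some on the cell surface, where they set the pH just outside the cell. CAIX (Car9) is a textbook target of the hypoxia-inducible factors, and membrane-bound carbonic anhydrases are often found on tumor cells. The 9 genes described here (Car2, Car3, Car4, Car5b, Car6, Car8, Car9, Car12 and Car13) were picked by symbol from the 52636 genes of the count table, after Car12 had been seen to be higher in treated than in mock control skin. That contrast is therefore described and not tested.

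RNA was sequenced from epidermal cells of mice with floxed Zfp36 alleles (fl/fl) and of littermates that also carried a Cre transgene driven by the human keratin 14 promoter (ΔK14). Zfp36 encodes tristetraprolin, a protein that attaches to AU-rich stretches near the 3′ end of mRNAs and hastens their breakdown. The Cre acts in keratinocytes, so other cell types of ΔK14 skin keep the gene. The mice were on a C57BL/6 background, and treatment began in young adults. Mock skin was compared with skin treated with the mutagen DMBA and the tumor promoter TPA (treated skin) and with papillomas from the same protocol (tumors). According to the study's methods the cells were sorted as positive for EpCAM and negative for CD45, CD140a and CD31, whereas the labels name whole skin as the source. The labels also call the treated cells tumoral, whereas the methods place them in nontumoral skin next to the papillomas.

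Each of the 6 groups held 3 columns, but columns 2 and 3 of mock ΔK14 did not differ in any gene and entered as 1 library, which left 17 libraries and n = 2 in that group. Total counts ran from 2808550 to 9617985. Zfp36 was at 10.1 to 38.6 CPM (counts scaled to library size) in the ΔK14 libraries and at 152 to 716 CPM in the fl/fl libraries. Epcam was at 87.9 CPM or more in every library. Of the markers sorted against, Ptprc (CD45) reached at most 1.51 CPM, but Pdgfra (CD140a) reached 24.7 and Pecam1 (CD31) 37.0 CPM, and 6 fibroblast markers summed to 30.4 to 1680 CPM, with Col1a1 at up to 727 and Dcn at up to 976 CPM. Of 8 adipocyte markers Adipoq had at most 1 count, while Fabp4 reached 125 CPM. Some libraries stood apart. On the second principal component, replicate 1 of mock fl/fl and of mock ΔK14 lay at 34 and 32.8, and the other mock libraries between -50.4 and -55.3. On the first, fl/fl tumor replicate 1, which had the lowest total, lay at 67.7, near the ΔK14 tumors (69.5 to 81.3) and away from the other fl/fl tumors (32 and 41). Values without these libraries are given beside the results they move most. Nothing in the labels says whether replicates were separate mice, so p-values measure the spread between these libraries.

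Of the 9 genes, 5 were detected at levels that could be tested: the cytosolic enzymes Car2 and Car13, the mitochondrial Car5b, and the membrane enzymes Car9 and Car12, whose catalytic domains face outward. The other 4 had at most 3 counts in any library and 57 counts in all 17 libraries together. These were Car3, a cytosolic enzyme of muscle and fat with 13 counts, Car4, a membrane-anchored enzyme with 9, Car6, the secreted enzyme of saliva with 19, and Car8, a family protein without catalytic activity, with 16. They never passed the filter on low counts, and differences between groups were not detectable at this depth. Skeletal muscle markers were equally scarce, at 1.64 to 6.52 CPM summed over 8 genes, and erythroid markers summed to 0.671 to 3.99 CPM. Among the 7 family genes outside the set, Car14 was at 1.57 to 8.25 CPM, Car15 at 0 to 2.74 CPM, and Car1 had 0 counts.

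**Figure D1:**
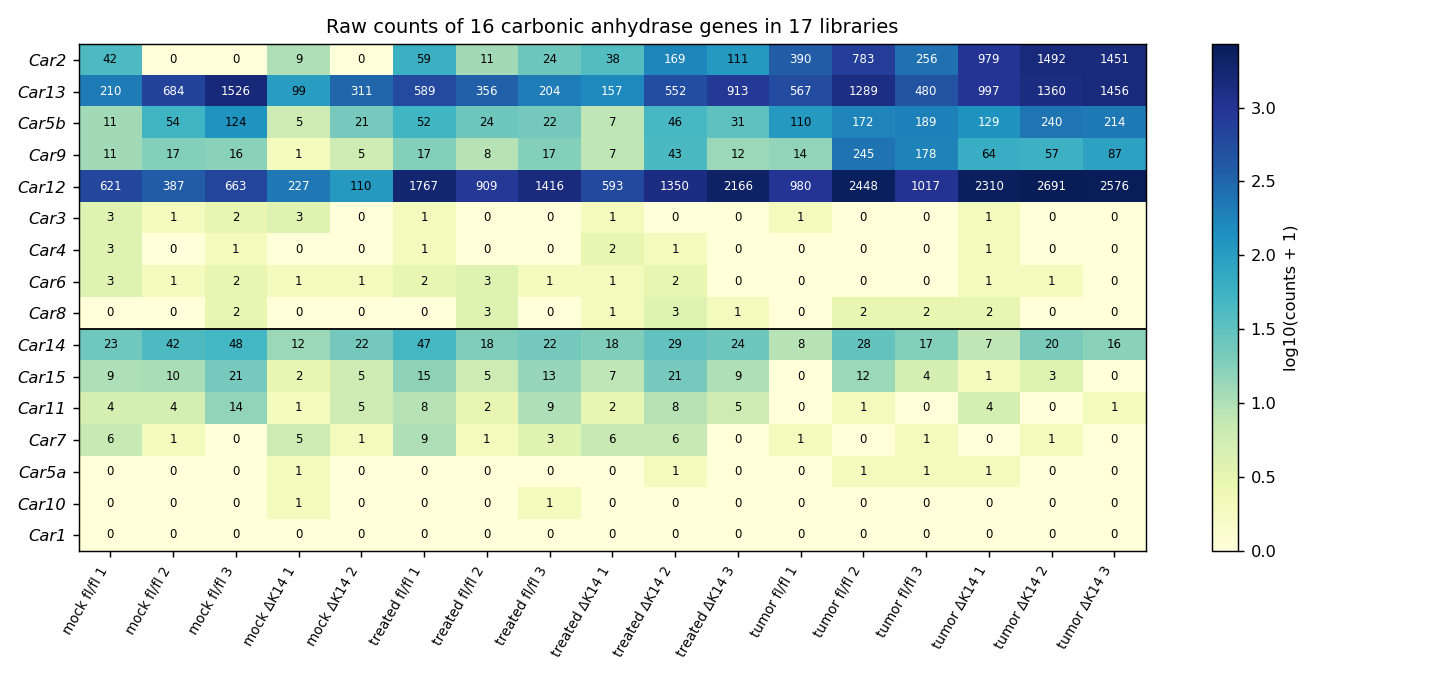
Raw counts of 16 carbonic anhydrase genes (rows) in 17 libraries (columns, by group and replicate), colored by log10 of the count plus 1. The 9 genes of the set are above the line, and Car3, Car4, Car6 and Car8 never exceed 3 counts.

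Per exon length, Car13 and Car12 made up most of the family's mRNA in skin. In mock fl/fl skin Car13 was at 44.2 ± 29.7 RPKM (reads scaled to exon length and to library size; SD, n = 3) and Car12 at 9.17 ± 0.789 RPKM, while Car2, Car5b and Car9 lay between 0.642 and 1.25 RPKM. In treated fl/fl skin Car12 (25.3 ± 0.935 RPKM) and Car13 (24.5 ± 11.6 RPKM) did not differ beyond their spread. In fl/fl tumors the order was Car13 (92.6 ± 28.3 RPKM), Car2 (54.9 ± 23.6), Car12 (52.6 ± 10.8), Car9 (14.9 ± 11.2) and Car5b (7.52 ± 2.98), with Car2 and Car12 within their spread of each other, and likewise Car9 and Car5b. In ΔK14 tumors Car13 (108 ± 11.7 RPKM) and Car2 (105 ± 13.0) did not differ beyond their spread and lay above Car12 (65.6 ± 2.11). The order of the leading means depended on the length used. The longest protein-coding transcript was an alternative chosen after seeing the data. With it Car12 had the highest mean in fl/fl tumors (108 ± 22.1 RPKM, against 92.6 ± 28.3 for Car13 and 74.4 ± 31.9 for Car2). In ΔK14 tumors Car2 did (143 ± 17.6 RPKM, against 134 ± 4.31 for Car12 and 108 ± 11.7 for Car13). The 2 highest genes in each did not differ beyond their spread.

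The sum over the 16 family genes was 59.93 ± 30.91 RPKM in mock and 56.15 ± 12.87 in treated fl/fl skin, and 225.3 ± 51.12 in fl/fl tumors. In ΔK14 mice it was 42.54 ± 26.47 (n = 2), 77.15 ± 47.83 and 292.7 ± 23.02 RPKM. Shares were taken in each library and then averaged. The mean share of Car2 was 2.64% in mock fl/fl skin and 23.7% in fl/fl tumors. In ΔK14 mice it was 2.11% in mock skin, 9.17% in treated skin and 35.9% in tumors. The mock means came from replicate 1 alone (7.93% in fl/fl and 4.22% in ΔK14 mice), with 0% in the other mock libraries.

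**Figure D2:**
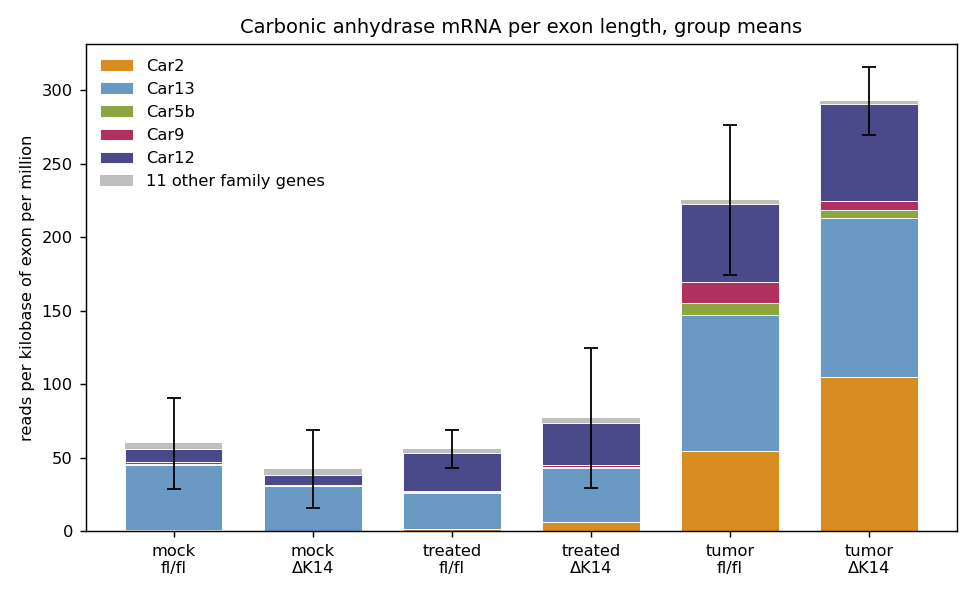
Mean RPKM of the carbonic anhydrase genes in each group, stacked by gene, with the SD of the family sum over libraries as error bars. Car13 and Car12 fill most of the bars of skin. Car2 is a visible part only in tumors and in treated ΔK14 skin, where its share averaged 9.17% over libraries.

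Car2 encodes a very active cytosolic enzyme. The gene lies at chr3:14886273-14900770 (GRCm38, plus strand), in a cluster with Car3 and Car13. In mock fl/fl skin it was at 4.66 CPM in replicate 1 and had 0 counts in replicates 2 and 3, which allows up to 0.589 and 0.29 CPM. In mock ΔK14 skin it was at 2.44 CPM in replicate 1 and had 0 counts in the other library. Car2 mRNA was thus seen in mock skin in the 2 libraries that stood apart. Such limits cover counting error alone. In treated skin it was at 6.41, 2.41 and 3.14 CPM in fl/fl mice and at 6.82, 22.1 and 18.8 CPM in ΔK14 mice. In tumors it was at 195.7, 119.6 and 83.9 CPM in fl/fl mice and at 218.9, 270.8 and 275.7 CPM in ΔK14 mice. Every tumor library exceeded every skin library, and in treated skin and tumors every ΔK14 library exceeded every fl/fl library.

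Car13 encodes another cytosolic enzyme and lies at chr3:14641727-14663002 on the plus strand. It was at 23.3, 134.3 and 147.5 CPM in mock fl/fl skin and at 26.8 and 112.1 CPM in mock ΔK14 skin, so that the low value fell on replicate 1 in both genotypes. Treated skin was at 64.0, 78.1 and 26.7 CPM in fl/fl and 28.2, 72.1 and 154.4 CPM in ΔK14 mice. Tumors were at 284.5, 196.8 and 157.3 CPM in fl/fl and 223.0, 246.8 and 276.6 CPM in ΔK14 mice. All tumors lay above all skin libraries, and the genotypes overlapped at each stage.

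Car5b encodes a mitochondrial enzyme and lies at chrX:163976822-164027997 on the minus strand. In mock skin it was at 1.22, 10.6 and 11.99 CPM in fl/fl and 1.35 and 7.57 CPM in ΔK14 mice, again lowest in replicate 1. In treated skin it was at 5.65, 5.26 and 2.88 CPM in fl/fl and 1.26, 6.01 and 5.24 CPM in ΔK14 mice. Tumors were at 55.2, 26.3 and 62.0 CPM in fl/fl and 28.9, 43.6 and 40.7 CPM in ΔK14 mice. The tumors again lay above all skin libraries, with overlap between the genotypes.

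Car9 lies at chr4:43506966-43513729 on the plus strand. In mock skin it was at 1.22, 3.34 and 1.55 CPM in fl/fl and 0.271 and 1.80 CPM in ΔK14 mice, and in treated skin at 1.85, 1.75 and 2.22 CPM in fl/fl and 1.26, 5.61 and 2.03 CPM in ΔK14 mice. Tumors were at 7.02, 37.4 and 58.3 CPM in fl/fl and 14.3, 10.4 and 16.5 CPM in ΔK14 mice. All tumors exceeded all skin libraries, and 2 of the 3 fl/fl tumors exceeded every ΔK14 tumor, while fl/fl replicate 1 lay below them. RefSeq promoter windows (GRCm38.p6, 250 bases before to 50 after the start) were given for 5 of the 9 genes, Car4, Car5b, Car6, Car9 and Car12. They were searched on both strands for ACGTG and GCGTG, core letters of the element bound by hypoxia-inducible factors, and for TGANTCA, the form bound by AP-1, which TPA activates. Matches may overlap each other. The Car9 window held ACGTG on the opposite strand 18 bases before the RefSeq start and TGANTCA 77 bases before it. That start lies downstream of the Car9 start given above, which is from another annotation (GENCODE). By the GENCODE position the ACGTG match lies inside the gene and the TGANTCA match before it. They are shown because Car9 is the member known as a hypoxia target, with the motif in capitals, at chr4:43506996-43507025 and chr4:43506938-43506967.
Car9 ACGTG (opposite strand): ctatttccgatgCACGTacagcccgtccac
Car9 TGANTCA: aaagggcactgTGAGTCAgcctgctcccct
Of 32851 promoter windows, 19.6% held ACGTG, 32.4% GCGTG and 7.8% TGANTCA. Among the other windows, ACGTG was also found in those of Car4 (once) and Car6 (2 times, beside GCGTG once), 2 genes with at most 3 counts in any library. The Car5b window held GCGTG 5 times, and the Car12 window held none of the 3 motifs. A match in these letters is a description and not a binding site.

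Car12 lies at chr9:66713686-66766845 on the plus strand. In mock skin it was at 68.9, 76.0 and 64.1 CPM in fl/fl and 61.5 and 39.7 CPM in ΔK14 mice. In treated skin it was at 191.9, 199.3 and 185.1 CPM in fl/fl and 106.4, 176.2 and 366.2 CPM in ΔK14 mice, so that the fl/fl libraries were close together and the ΔK14 libraries were spread widely. In tumors it was at 491.7, 373.8 and 333.3 CPM in fl/fl and 516.6, 488.4 and 489.4 CPM in ΔK14 mice. In each genotype the 3 stages did not overlap.

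Among the 9 genes, the longest annotated 3′ untranslated region held the tristetraprolin heptamer TATTTAT in Car12 alone, once, at base 2411 of 2488. It is shown because Zfp36 is the deleted gene, with the heptamer in capitals (GRCm38, chr9:66766757-66766786, plus strand).
Car12 TATTTAT: cagcatttccaTATTTATtgtaccaatgat
The heptamer was found in 27.6% of 20939 genes with such a region. Their median length was 961 bases, shorter than the region of Car12. The shorter ATTTA was present 8 times in Car8, 4 times in Car12 and in Car5b, and 2 times in Car13 and in Car3. It was present once in Car9 and in Car6 and 0 times in Car2 and in Car4, and 65.2% of the genes held it.

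**Figure D3:**
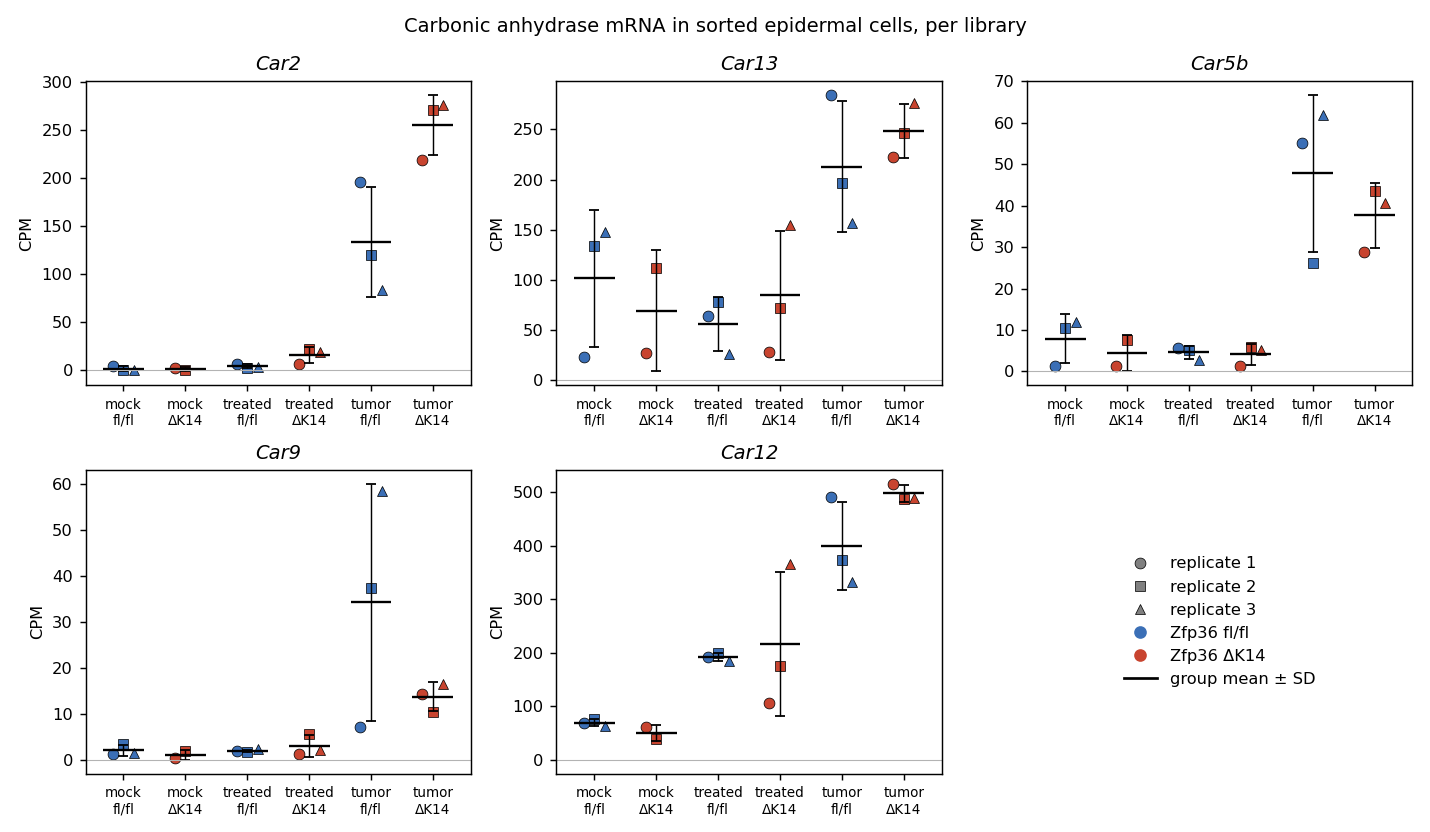
CPM of the 5 detected carbonic anhydrases in each library (symbols by replicate, blue fl/fl and red ΔK14), with group means and SD. Tumors lie above all skin libraries for each gene except Car12, where treated ΔK14 replicate 3 (366.2 CPM) exceeds fl/fl tumor replicate 3 (333.3 CPM).

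Treated and mock skin were compared to ask what the carcinogen protocol changed in skin outside the papillomas. In fl/fl mice Car12, the gene that prompted the choice, was 2.78-fold higher in treated skin (log2 1.48, SE 0.16), with no overlap, as was the case for 5.42% of genes in that direction. In the same contrast Car2 differed by 1.31, Car9 by 0.00, Car5b by -0.76 and Car13 by -0.83 on the log2 scale, all with overlap. Without mock replicate 1 the differences were -1.30 for Car13, -1.27 for Car5b, -0.21 for Car9 and 1.49 for Car12, and Car2, at 0 counts in the remaining mock libraries, was at least 6.77-fold higher in treated skin (against 3 counts per library). These values are descriptions. Of 16601 genes tested there, 0% were called at an adjusted p under 0.05 with a fold over 2 (913 had an unadjusted p under 0.05), and 15.1% of 17103 without mock replicate 1.

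In ΔK14 mice, whose libraries played no part in the choice, Car12 was 4.25-fold higher in treated than in mock skin (log2 2.09, SE 0.58, unadjusted p = 0.0101, adjusted p = 0.721 by edgeR's quasi-likelihood test), in 3 of 3 libraries against 2. Car2 was 11.9-fold higher (log2 3.57, SE 1.03, adjusted p = 0.763), also without overlap. That fold rests on the 9 counts of mock replicate 1, and against the other mock library, at 0 counts, Car2 was at least 14.7-fold higher. Car2 also passed the low-count filter through the treated libraries. Neither Car12 nor Car2 passed the test. By edgeR, 0% of 15891 genes were called there, 4.8% had an unadjusted p under 0.05, and 7.8% were higher in every treated library. By DESeq2 Car2 passed (log2 3.62, adjusted p = 0.0362) and was the only member that did. How many of all genes DESeq2 called there is not given here, so this call is not read as particular to Car2. Car9 (log2 1.61), Car13 (0.28) and Car5b (-0.05) overlapped between the groups.

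Tumors were compared with both kinds of skin to ask what set papilloma cells apart. Against treated skin of the same genotype all 5 detected carbonic anhydrases were higher. In fl/fl mice Car2 rose 31.0-fold (log2 4.96, SE 0.47, adjusted p = 0.00121), Car9 17.4-fold (4.12, SE 0.70, adjusted p = 0.00713), Car5b 10.2-fold (3.34, SE 0.42, adjusted p = 0.00271) and Car13 3.73-fold (1.90, SE 0.39, adjusted p = 0.0135), all by edgeR. Thus 4 of 4 tested members were called higher, against 7.5% of 15362 genes, and each was higher in every tumor, as were 21.9% of genes. Car12 was 2.04-fold higher (log2 1.03), described without a test because its treated libraries prompted the choice.

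In ΔK14 mice 5 of 5 were called higher than in treated skin, against 10.5% of 15289 genes, and each was higher in every tumor, as were 28.4% of genes. Car2 rose 14.8-fold (log2 3.89, SE 0.39, adjusted p = 0.000444), Car5b 8.23-fold (3.04, SE 0.45, adjusted p = 0.00182) and Car9 4.12-fold (2.04, SE 0.51, adjusted p = 0.0142). Car13 rose 2.77-fold (log2 1.47, SE 0.48, adjusted p = 0.041) and Car12 2.18-fold (log2 1.12, SE 0.38, adjusted p = 0.0446). The calls of Car12 and Car13 were near the threshold. Leaving out treated ΔK14 replicate 2 or any of the ΔK14 tumors brought the count to 3, 3, 3 and 2. The share of all genes called in those fits is not given here, so these losses are not read as particular to the members.

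Against mock skin Car2 again had the largest fold of the members in each genotype. In fl/fl mice Car2 rose 77.5-fold (log2 6.28, SE 1.37, adjusted p = 0.0493) and Car9 17.3-fold (4.11, SE 0.81, adjusted p = 0.0382), so that 2 of 4 tested members were called higher against 2.22% of 15394 genes. Car5b (log2 2.57, adjusted p = 0.0898) and Car13 (1.03, adjusted p = 0.323) lay higher in all tumors without passing, and Car12 was 5.6-fold higher (log2 2.49), as a description. Of all genes tested, 15.5% were higher in every tumor. The Car2 fold rests on mock replicate 1, since the other mock fl/fl libraries had no count, and against those it was at least 226-fold higher. Mock fl/fl skin had 42, 0 and 0 counts of Car2 and 11, 17 and 16 of Car9. Both genes passed the low-count filter there through the tumors, so their folds and calls rest on those few counts. Without mock replicate 1 Car5b was also called (log2 2.06, adjusted p = 0.0178), as were 9.45% of 15636 genes in that direction, and Car13 was not (0.58). The calls of Car2 and Car9 were both lost without mock replicate 2 or 3 or tumor replicate 2 or 3, and that of Car2 without tumor replicate 1. Such losses are not read as particular to these genes.

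In ΔK14 mice 4 of 5 were called higher in tumors than in mock skin, against 7.05% of 15027 genes. Car2 rose 175-fold (log2 7.45, SE 0.80, adjusted p = 0.00674), Car9 13.0-fold (3.71, SE 0.68, adjusted p = 0.021), Car12 9.21-fold (3.20, SE 0.32, adjusted p = 0.00608) and Car5b 8.19-fold (3.03, SE 0.65, adjusted p = 0.0309). Car13 missed the threshold (log2 1.76, adjusted p = 0.0815). Each of the 5 was higher in every tumor, as were 28.6% of genes. The Car2 fold rests on mock replicate 1, and against the other mock library, at 0 counts, Car2 was at least 236-fold higher. Car9 had 1 and 5 counts in the mock ΔK14 libraries and failed the low-count filter between genotypes in mock skin. Here Car9 passed the filter through the tumors, as did Car2 with 9 and 0 counts in those libraries. The folds and calls of both genes rest on those few counts. Without mock replicate 1 Car13 was also called (log2 1.12, adjusted p = 0.013), as were 14.7% of 16269 genes in that direction. Leaving out ΔK14 tumor replicate 1, 2 or 3 brought the count to 2, 1 and 2. As the share of all genes called then is not given here, these losses are not read as particular to the members.

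The comparisons of tumors with mock and with treated skin share the tumor libraries. In these bulk samples fewer cells that express a gene and less mRNA per cell cannot be told apart. The makeup of the sorted cells moved with the stage. Summed over 9 genes, hair follicle matrix and sheath markers were at 648 to 2560 CPM in skin and 119 to 240 CPM in tumors. Sebaceous gland markers, summed over 8 genes, were at 437 to 861 CPM in skin and 291 to 384 CPM in ΔK14 tumors, and at 360, 4790 and 8730 CPM in fl/fl tumors 1 to 3. The leukocyte list was at 7.58 to 22.4 CPM in mock skin, 57.9 to 139 CPM in fl/fl tumors and 580 to 832 CPM in ΔK14 tumors, where it consisted mostly of S100a8, which keratinocytes can also express (735 CPM on average, with Ptprc at 0.823 CPM). The part of these shifts in the carbonic anhydrase differences was not tested.

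**Figure D4:**
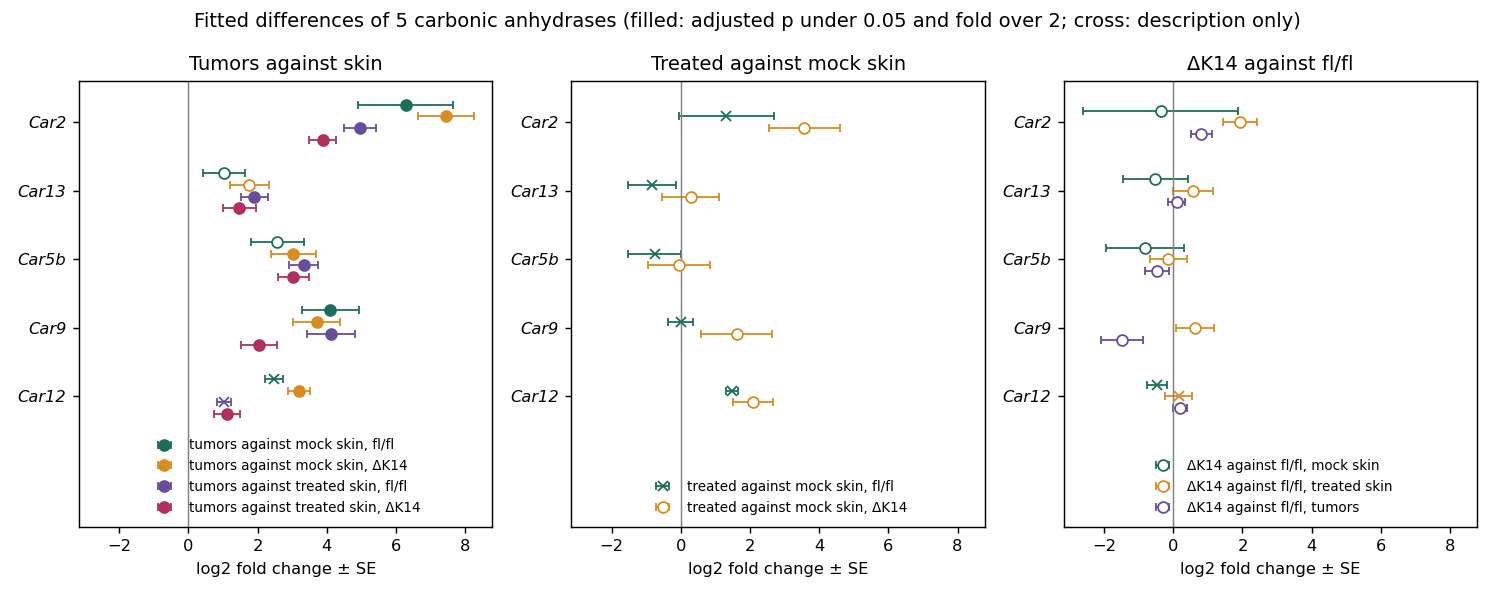
Fitted log2 fold changes (x axis, with SE) of the 5 detected carbonic anhydrases in the 9 pairwise comparisons, with filled circles for calls and crosses for values given as a description. Car2 has the largest differences between tumors and skin, and no difference between genotypes is filled.

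The genotypes were compared at each stage to ask what the loss of Zfp36 changed. None of the tested carbonic anhydrases passed the test at any stage. In mock skin Car13 (log2 -0.52), Car5b (-0.82) and Car2 (-0.37) overlapped between genotypes, Car9 was not tested, and Car12 was lower in both ΔK14 libraries (-0.47), as a description, as were 5.58% of genes. By edgeR 0% of 15920 genes were called there (253 had an unadjusted p under 0.05). Without replicate 1 of both mock groups, which left 1 ΔK14 library, the log2 differences were -0.28 for Car13, -0.53 for Car5b, -0.32 for Car9 and -0.76 for Car12.

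In treated skin Car2 was 3.81-fold higher in ΔK14 mice (log2 1.93, SE 0.50, unadjusted p = 0.00461, adjusted p = 0.839 by edgeR), in 3 of 3 libraries. By edgeR 0.00616% of 16232 genes were called in that comparison, and 5.77% were higher in every ΔK14 library. Car9 (log2 0.62), Car13 (0.57), Car12 (0.15) and Car5b (-0.14) overlapped between genotypes. The leukocyte list was at 8.24 to 15.2 CPM in treated fl/fl and 46.8 to 256 CPM in treated ΔK14 skin. In treated ΔK14 skin it consisted mostly of S100a8, at 119 CPM on average against 1.57 in treated fl/fl skin. Ptprc was lower in ΔK14 mice (0.376 against 0.514 CPM), and Cd68 was higher (6.56 against 2.98 CPM). The part of this list in the Car2 difference was not tested.

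In tumors Car2 was 1.76-fold higher in ΔK14 mice (log2 0.81, SE 0.30, unadjusted p = 0.0242, adjusted p = 0.291 by edgeR), without overlap. Car9 lay in the opposite direction, 2.81-fold lower in ΔK14 tumors (log2 -1.49, SE 0.60, unadjusted p = 0.0384, adjusted p = 0.331), with overlap through fl/fl replicate 1. Of 14067 genes 0.0284% were called, 14% had an unadjusted p under 0.05, and 13.6% were higher in every ΔK14 tumor. Car12 (log2 0.19), Car13 (0.10) and Car5b (-0.47) had adjusted p-values of 0.707, 0.886 and 0.56. Without fl/fl tumor replicate 1 both Car2 (log2 1.21, adjusted p = 0.00301) and Car9 (log2 -1.90, adjusted p = 0.00131) were called, as were 16.9% of 15463 genes. Whether the 2 genes were called thus turned on that library, as it did for many other genes, while both differences kept their direction. Among the tumors, sebaceous gland markers moved with Car9. Tumor fl/fl replicate 1 was low in both (360 CPM and 7.02 CPM), like the ΔK14 tumors, and fl/fl replicates 2 and 3 were high in both. Against skin they did not move together. In fl/fl tumor replicate 1 and the ΔK14 tumors (291 to 384 CPM) the sebaceous sum was below every skin library (437 to 861 CPM), while Car9 was above every skin library. Of the 5 sebaceous markers tested between genotypes, 5 had an unadjusted p under 0.05 with lower values in ΔK14 tumors (median log2 -3.87), and 0 were called. Their part in the Car9 difference was not tested.

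The change from treated skin to tumors was larger for Car9 in fl/fl than in ΔK14 mice, by 2.05 on the log2 scale (interaction -2.05, SE 0.91, unadjusted p = 0.0418, adjusted p = 0.361 by edgeR), which did not pass. By edgeR 0.0118% of 17017 genes were called for this interaction. Without fl/fl tumor replicate 1 the interaction was -2.51 and passed (adjusted p = 0.032), beside 7.53% of 17951 genes. The sebaceous markers had the same sign in this interaction (7 of 7 negative, 6 with an unadjusted p under 0.05, 0 called, median log2 -4.00), and their part in it was not tested. For Car2 the interaction was -1.04 (adjusted p = 0.481). No member passed the other interactions, in which 0% of 17694 and of 17388 genes were called (257 and 1423 had an unadjusted p under 0.05).

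Lists of hypoxia targets, of proton and lactate exporters and of bicarbonate transporters were followed beside the carbonic anhydrases. A list of 12 hypoxia targets, without Car9, was summed in each library. It was at 693 to 1260 CPM in skin, at 3960, 2410 and 2220 CPM in fl/fl tumors and at 6430, 5340 and 6850 CPM in ΔK14 tumors. The ΔK14 tumors lay above all fl/fl tumors, and fl/fl replicate 1, with the lowest Car9 of all tumors, had the highest sum of the fl/fl tumors. In ΔK14 tumors 10 of 12 targets were called higher than in treated skin, against 10.5% of genes, and in fl/fl tumors 6 of 12, against 7.5%. Between genotypes in tumors all 12 estimates were higher in ΔK14 mice (median log2 0.95, against -0.02 over all genes), among them Adm (2.47) and Vegfa (1.79), which encode vasoactive and angiogenic peptides. By edgeR 0 of the 12 were called and 8 had an unadjusted p under 0.05. Without fl/fl replicate 1, 8 of 12 were called higher, against 7.32% of genes, where Car9 was called lower.

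**Figure D5:**
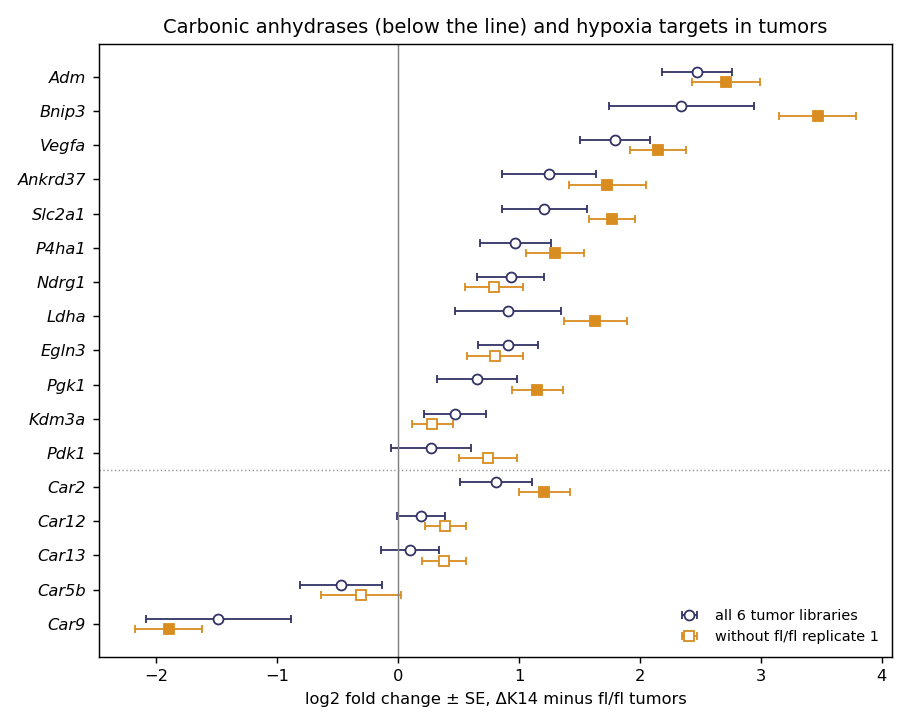
Fitted log2 fold changes (x axis, with SE) between ΔK14 and fl/fl tumors for 5 carbonic anhydrases (below the dotted line) and 12 hypoxia targets (above it), with all 6 tumor libraries (circles) and without fl/fl replicate 1 (squares); filled symbols are calls. All hypoxia targets lie to the right of 0, and Car9 lies to the left (-1.49 and -1.90).

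Of 10 proton and lactate exporters, Slc16a1 (MCT1) was called higher in tumors in each comparison with skin, by 4.67 and 3.28 on the log2 scale against mock and treated fl/fl skin and by 4.94 and 2.78 against mock and treated ΔK14 skin. Slc16a3 (MCT4), the lactate exporter of glycolytic cells, rose against treated skin in fl/fl (log2 2.71, or 1.31 without fl/fl tumor replicate 1) and ΔK14 mice (4.14) and against mock ΔK14 skin (5.27). Slc16a7 (MCT2) fell in the same 3 comparisons (log2 -4.40, -5.98 and -5.70, the last of which was -2.04 without mock replicate 1). The MCT chaperones Emb and Bsg were called higher against mock ΔK14 skin (log2 1.98 and 1.24), Emb also against treated fl/fl skin (1.37) and Bsg against treated ΔK14 skin (1.22). In all, 1 of 6 tested exporters was called higher against mock fl/fl skin (2.22% of genes) and 4 of 6 against mock ΔK14 skin (7.05%), and 3 of 7 and 3 of 6 against treated fl/fl (7.5%) and ΔK14 skin (10.5%).

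Bicarbonate transporters carry the product of the enzymes across membranes. Of 7 tested, Slc4a7, a sodium bicarbonate cotransporter, was called higher in tumors than in treated skin in fl/fl (log2 1.33) and ΔK14 mice (1.41), and the anion exchanger Slc4a3 was called lower in fl/fl mice (-2.37). Of all genes, 7.5% and 10.5% were called higher there in fl/fl and ΔK14 mice, and 10.5% lower in fl/fl mice. By edgeR 0 were called in tumors against mock skin, where 2 of 7 in fl/fl and 2 of 6 in ΔK14 mice had an unadjusted p under 0.05. In that comparison 4.11% and 14.3% of all genes were called, and 26.2% and 34.4% had such a p. Without mock replicate 1 calls appeared there, with Slc4a7 higher in fl/fl (log2 3.83) and ΔK14 mice (4.56) and the exchanger Slc4a8 lower (-3.42 and -2.73), in all 1 higher and 1 lower of 7 in fl/fl and 3 higher and 1 lower of 8 in ΔK14 mice. In those fits 21% of 15636 genes were called in fl/fl and 28.1% of 16269 in ΔK14 mice. The shares called higher were 9.45% and 14.7% of the genes tested. These counts are therefore not read as particular to the transporters. Of the other carbonic anhydrases 1 or 2 were tested in each comparison and 0 were called, with 1 at an unadjusted p under 0.05 in the interaction of tumors against treated skin, as were 13.2% of genes.

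Over the 17 libraries and 18252 genes, the genes with the pattern most like Car2 by Pearson's r of log2 CPM were Rab31 (0.978), Igsf3 (0.976) and Ctsc (0.974). For Car5b they were Palld (0.974), Pdlim1 (0.971) and Cast (0.969), for Car13 Ifitm3 (0.981), Pacsin3 (0.977) and Mvp (0.977), for Car12 Gm44342 (0.967), 2610528A11Rik (0.961) and Serinc2 (0.958), and for Car9 Slc1a2 (0.947), 1110002E22Rik (0.946) and Map2k3os (0.94). Among the members the highest values were those of Car5b with Car13 (0.92) and Car2 with Car12 (0.91), and the lowest was that of Car2 with Car13 (0.51). The libraries share stages, genotypes and depth, so these values are descriptions.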

How the data were processed

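The authors deposited a table of raw counts for each gene, made from Ovation SoLo libraries sequenced on an Illumina HiSeq. The submitters' processing notes name mm10, Trimmomatic 0.36, STAR 2.5.3, HTSeq 0.9.1 and DESeq2, without their roles. Whether strand was used or duplicates were removed is not given in the sources used here. Of 52636 gene IDs, 52489 were found in the GENCODE M21 annotation of GRCm38, which gave positions, exon lengths and 3′ untranslated regions. The 2 identical mock ΔK14 columns were used once. No column lay outside the design.

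R 4.3.3 was used with DESeq2 1.42.0, edgeR 4.0.16 and limma 3.58.1. A comparison was fitted on its own libraries alone, with filterByExpr, TMM scaling and edgeR's two-sided quasi-likelihood test, with Benjamini-Hochberg adjustment over all genes tested. Calls required a fold over 2 beside an adjusted p under 0.05. CPM were taken on 1 TMM scaling of the 17 libraries, and RPKM on the union of exons. Log2 CPM for correlations and principal components used a prior count of 2. A count of 0 was taken to allow up to 3 counts.

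The members and gene lists were chosen with earlier results of these data known. Named were all members, called list genes (up to 3 in each direction by smallest p), the fourth call Bsg against mock ΔK14 skin and, after their values were seen, Adm, Vegfa and Slc4a8, and the 3 genes most like each tested member. Alternatives were DESeq2, RLE scaling, no low-count filter, 1 fit of all libraries, the replicate number as a block, a term for mock replicate 1, both copies of the duplicated column, and each library left out. List counts without fl/fl tumor replicate 1 or both mock replicates 1, Car2 bounds, and transcript length, were added after seeing the data. On simulated data the procedures returned the planted fold changes, but many changed genes were not called, so a member that missed the threshold is not shown to be unchanged. The criterion of that check was revised after a first one, on the share of genes found, was not met.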

Additional observations from a re-analysis of the deposited data

How the results depend on the processing

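No direction of a called carbonic anhydrase changed under any alternative. Without the low-count filter 1 member was called between genotypes in treated skin (Car2, log2 1.92), 1 in tumors (Car9, -1.32), 2 in treated against mock ΔK14 skin (Car2 and Car12) and 1 in the interaction of tumors against treated skin (Car9, -1.99), where 0 were called with it. DESeq2 called 1 in treated against mock ΔK14 skin, and it also called Car5b in tumors against mock fl/fl skin (2.60) and Car13 against mock ΔK14 skin (1.78). With all 17 libraries in 1 fit Car13 lost its calls in tumors against treated fl/fl (1.92, adjusted p = 0.0618) and ΔK14 skin (1.55, adjusted p = 0.108), and Car5b gained one against mock fl/fl skin (2.59). With the replicate block 0 were called in tumors against mock fl/fl skin (Car2 and Car9, both adjusted p = 0.0652), while Car13 in treated against mock ΔK14 skin reversed to -0.30. The block changed no other call. The replicate numbers were not taken as pairs, since the correlations of same-numbered libraries' deviations ran from -0.546 to 0.782. All were above 0.1 between genotypes in mock skin (0.782 and 0.569) and in treated against mock ΔK14 skin (0.569 and 0.141), and in no other comparison. Without the filter Car5b in that comparison reversed to 0.04. The cause of these shifts was not tested. How many of all genes were called under these alternatives is not given here. Calls gained or lost are therefore not read as particular to the members.

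With each library left out in turn, the members called ran from 0 to 2 between genotypes in tumors. They ran from 0 to 3 and 1 to 5 in tumors against mock fl/fl and ΔK14 skin, and 2 to 5 against treated ΔK14 skin. In the interaction of tumors against treated skin they ran from 0 to 1. Members are not counted in treated against mock fl/fl skin, the contrast that prompted the choice. The share of all genes called moved too. Leaving out fl/fl tumor replicate 1 took it from 0.0284% to 16.9% between genotypes in tumors. In tumors against mock fl/fl skin it went from 4.11% to 3.65%, and in that interaction from 0.0118% to 7.53%. For the other libraries left out the share is not given here, so changes in the counts of members are not read as particular to them. Estimates that reversed were never called. Between genotypes they were Car13 (-1.93 to 0.17) and Car2 (-6.51 to 0.51) in mock skin, Car5b (-0.51 to 0.28), Car9 (-0.27 to 0.97) and Car13 (-0.13 to 0.98) in treated skin, and Car13 (-0.07 to 0.38) in tumors. In treated against mock ΔK14 skin they were Car5b (-0.82 to 1.67) and Car13 (-0.47 to 1.69). In the interactions they were Car2 (-4.13 to 8.43) and Car5b (-0.07 to 2.38) for treated against mock skin, Car2 (-4.90 to 7.10), Car5b (-0.29 to 2.18) and Car9 (-1.25 to 1.38) for tumors against mock skin, and Car5b (-0.68 to 0.11) and Car13 (-0.82 to 0.32) for tumors against treated skin. The wide Car2 ranges come from groups left with 0 counts in every library and depend on the prior count. Depth limits Car3, Car4, Car6 and Car8, for which 3 counts correspond to 0.29 to 1.51 CPM.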
